A study of Homo sapiens with 8 samples.

Results

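The SR proteins studied here were the products of 10 genes of the serine/arginine-rich splicing factor family, SRSF1, SRSF2, SRSF3, SRSF4, SRSF5, SRSF6, SRSF7, SRSF9, SRSF10 and SRSF11. They were chosen as a list of family genes, and their Ensembl identifiers were mapped to symbols with GENCODE release 44 on GRCh38. They are 10 of the 60624 genes listed in the count files, and all 10 were among the 18661 genes with enough reads to be tested. RNA from A549 cells, an established human lung adenocarcinoma line, was sequenced after no treatment, indisulam, SPHINX31 or the combination of both. According to the methods of the study, the cells received 0.5 μM indisulam, 5 μM SPHINX31 or both for 24 h, whereas the sample labels give 2 μM indisulam and 18 h for all libraries, the untreated ones included. Each of the 4 groups had 2 libraries, which are technical replicates of 1 cell line. P-values therefore measure only the spread between these libraries and not the spread between independent treatments. The comparisons asked how the RNA levels of these genes changed with each compound, with both, and with SPHINX31 or indisulam added to the other compound.

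SR proteins bind exonic splicing enhancers through an RNA recognition motif and recruit spliceosome components through a domain rich in arginine-serine repeats. Phosphorylation of that domain by SRPK1 in the cytoplasm and by the CLK kinases in the nucleus controls their nuclear import, storage in speckles and release to sites of transcription. Many SR genes hold an ultraconserved poison exon whose inclusion sends the transcript to nonsense-mediated decay, by which SR proteins limit their own mRNA. Indisulam is a molecular glue that brings the SR-related splicing factor RBM39 to the DCAF15 ubiquitin ligase for degradation, and SPHINX31 inhibits SRPK1. The paper cites a report that SPHINX31 acts on CLK1 and SRSF2 as well. The libraries measured gene counts, so that neither protein nor phosphorylation nor the use of single exons was measured.

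The 10 genes lie on 7 chromosomes, and GENCODE annotates between 1 and 6 nonsense-mediated decay transcripts for each of them. SRSF1 (ENSG00000136450, chromosome 17, 58000919 to 58007346, minus strand) has 4 exons in its canonical transcript and 3 annotated decay transcripts. SRSF3 (ENSG00000112081, chromosome 6, 36594353 to 36605600, plus strand) has 6 exons and 2 decay transcripts. SRSF6 (ENSG00000124193, chromosome 20, 43457893 to 43466046, plus strand) has 6 exons and 1 decay transcript. SRSF7 (ENSG00000115875, chromosome 2, 38743599 to 38751494, minus strand) has 8 exons and 6 decay transcripts, the highest number in the family. The counts add up all transcripts of a gene, decay transcripts included.

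The promoters of the SR genes with the largest rise, the next largest rise and the only fall with indisulam are given here, since these genes carry the main result. They are RefSeq sequences on GRCh38.p14, from 250 bases before to 50 bases after the RefSeq start site, in the direction of transcription, with the letters of any searched motif in capitals. The windows are chr17:58007197-58007496 on the minus strand for SRSF1, chr6:36594112-36594411 on the plus strand for SRSF3 and chr20:43457646-43457945 on the plus strand for SRSF6. GENCODE places the outermost start of SRSF1 further upstream, at 58007346.
SRSF1: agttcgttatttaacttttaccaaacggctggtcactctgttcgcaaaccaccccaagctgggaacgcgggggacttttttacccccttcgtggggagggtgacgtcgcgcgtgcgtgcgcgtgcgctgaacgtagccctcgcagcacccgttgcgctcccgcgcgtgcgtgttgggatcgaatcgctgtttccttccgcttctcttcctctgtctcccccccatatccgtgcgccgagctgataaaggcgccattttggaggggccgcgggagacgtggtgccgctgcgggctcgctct
SRSF3: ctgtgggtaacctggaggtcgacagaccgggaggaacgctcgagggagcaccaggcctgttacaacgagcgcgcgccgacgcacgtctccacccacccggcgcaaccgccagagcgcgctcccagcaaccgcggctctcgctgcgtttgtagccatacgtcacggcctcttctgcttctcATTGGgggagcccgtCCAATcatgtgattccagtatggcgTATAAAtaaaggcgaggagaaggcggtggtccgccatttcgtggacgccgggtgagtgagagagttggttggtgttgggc
SRSF6: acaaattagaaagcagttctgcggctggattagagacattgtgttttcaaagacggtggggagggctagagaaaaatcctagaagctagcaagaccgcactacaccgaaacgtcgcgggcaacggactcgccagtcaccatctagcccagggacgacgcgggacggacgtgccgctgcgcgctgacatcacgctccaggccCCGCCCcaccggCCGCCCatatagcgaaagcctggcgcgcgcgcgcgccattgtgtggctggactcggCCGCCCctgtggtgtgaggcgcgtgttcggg
Both strands were searched for 6 motifs, and 9 of the 10 SR genes matched an entry, with 11 promoters in all. TATAAA, the letters of the TATA box, was found 30 bases before the start of SRSF3 and 27 bases before a start of SRSF7. In SRSF11 the letters were on the other strand and far from the start, 206 bases before it. Anywhere in the window and on either strand, they were found in 11.5% of all 35116 promoters. CCAAT was found 70 and 55 bases before the start of SRSF3 and in none of the other SR promoters, against 34.6% of all promoters. GGGCGG, the GC box, was found 49 and 37 bases before and 19 bases after the start of SRSF6, in promoters of SRSF4, SRSF7 and SRSF11, and in 45% of all promoters. CCGGAAGT, the core of the ETS site, was found in promoters of SRSF4 and SRSF5 and in 4.14% of all promoters. CACGTG (the E-box) and TGACGTCA (the cAMP response element) were found in no SR promoter and in 7.26% and 1.85% of all promoters. The SRSF1 window held none of the 6 motifs. The GC content of the SR promoters was 53.7% to 74.7%, with a median of 58.7% over all promoters.

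The libraries held 51727369 to 63186989 counts on genes, with 83.0% to 84.5% of the recorded reads assigned to a gene in the indisulam and combination libraries and 84.9% to 86.0% in the untreated and SPHINX31 libraries. The part of this difference in the results was not tested. Each SR gene had between 2867 and 23623 counts per library. Levels are given as CPM, counts per 1000000 reads after adjustment of the library sizes. All 6 epithelial markers checked were present, with 4085 CPM of KRT8 in untreated cells, with a sum of 8496 to 9960 CPM per library, and the 9 markers of blood, endothelium and fibroblasts summed to between 5.69 and 7.04 CPM, with CD3E at 0. RBM39, whose protein is the target of indisulam, had 154 and 157 CPM in untreated, 361 and 360.3 in indisulam, 166 and 184 in SPHINX31 and 373 and 392 in combination libraries. SRPK1, a target of SPHINX31, had 128 and 129.6 CPM in untreated, 104 and 101 in indisulam, 118 and 131 in SPHINX31 and 109.6 and 109.0 in combination libraries. The RNA of both targets therefore moved with indisulam and not detectably with SPHINX31, with log2 fold changes of 1.22 and -0.33 with indisulam (adjusted p = 5.41e-09 and 3.42e-04) and 0.17 and -0.04 with SPHINX31 (adjusted p = 0.069 and 0.683, from edgeR's quasi-likelihood fit). In bulk RNA, a change in all cells and a change in only some of the cells cannot be told apart.

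Levels of different genes were compared per kilobase of canonical transcript. In untreated cells SRSF9, a regulator of splice site choice, ranked highest with 153 and 159 CPM per kb. SRSF5, also known as SRp40, followed with 117 and 119 CPM per kb, and SRSF2, the speckle protein also known as SC35, with 101 and 103. SRSF3, the smallest SR protein and an adaptor for mRNA export, had 69.9 and 70.3 CPM per kb, and SRSF7, an export adaptor with a zinc knuckle, 57.1 and 59.5. The other genes were well below these. SRSF11 had 27.4 and 28.7 CPM per kb, SRSF4 25.5 and 25.9, SRSF6 24.8 and 25.1, SRSF10 15.4 and 16.6, and SRSF1 14.0 and 14.2. No neighbours in this order overlapped in untreated or in indisulam-treated cells. The first 5 genes kept this order in all groups. Below them, SRSF4 ranked above SRSF11 with indisulam and SRSF6 above SRSF4 with SPHINX31, and SRSF1 ranked 10th in untreated and SPHINX31-treated cells but 8th with indisulam (23.9 and 24.4 CPM per kb) and with the combination (both 23.9). SRSF11 and SRSF6 overlapped in SPHINX31-treated cells (24.9 to 29.3 and 25.3 to 26.6 CPM per kb), as did SRSF5 and SRSF2 in the combination (122 to 146 and 113 to 122). The order depended on the length used. Per kilobase of all annotated exons together, SRSF2 ranked first in every group and SRSF4 last.

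**Figure D1:**
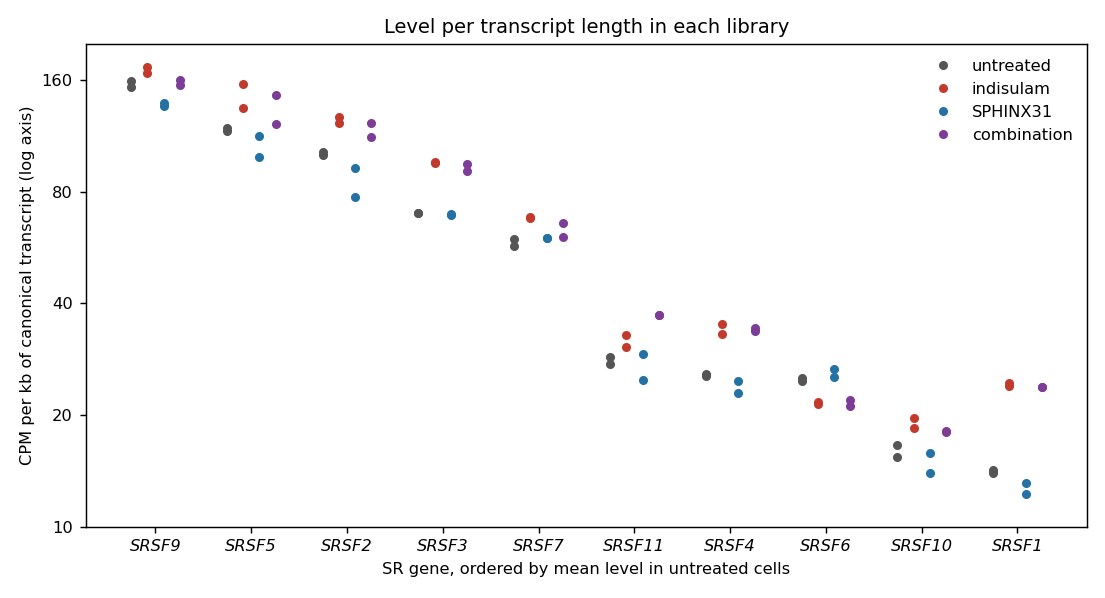
Levels of the 10 SR genes in CPM per kilobase of canonical transcript (log axis), with 1 dot per library and the 4 groups side by side within each gene, ordered by the mean level in untreated cells. SRSF9 lies highest in all groups, and SRSF1 moves from 14.0 and 14.2 in untreated to 23.9 and 24.4 in indisulam-treated cells, above SRSF10.

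Summed over the 10 genes, SR gene reads rose with indisulam. The sum was 1458 ± 7.49 CPM in untreated, 1788 ± 31.7 in indisulam-treated, 1369 ± 67.5 in SPHINX31-treated and 1731 ± 24.8 in combination-treated cells (SD, n = 2 each). The sums in the indisulam and combination libraries were all above those of the other groups, from 1713 to 1810 against 1321 to 1463 CPM. With indisulam the share of SRSF1 in the sum went from 5.17% to 7.23% and that of SRSF6 from 7.45% to 5.25%. SRSF3 was the largest contributor in all groups, and its share went from 20.3% to 22.6%.

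Indisulam alone raised the RNA of most SR genes and lowered that of SRSF6. Of the 10 genes, 8 were higher (SRSF1, SRSF2, SRSF3, SRSF4, SRSF5, SRSF7, SRSF9 and SRSF10), 1 was lower (SRSF6) and SRSF11 did not pass an adjusted p of 0.05. Of all 18661 genes tested, 43.7% passed, 20.1% as higher and 23.5% as lower. The median log2 fold change of the 10 SR genes was 0.28, beside -0.0041 for all genes tested. Without untreated replicate 1, 5 SR genes passed. Differences were tested with the quasi-likelihood test of edgeR, and each adjusted p is a Benjamini-Hochberg value over all genes.

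The largest rise was that of SRSF1, the prototype SR protein and a known proto-oncogene. It had 74.8 and 76.0 CPM in untreated and 131 and 128 CPM in indisulam libraries. The groups were far apart, with a 1.71-fold difference (log2 fold change 0.78, SE 0.0514, edgeR adjusted p = 1.02e-07). SRSF3 came next, with 297 and 296 CPM in untreated and 406 and 403 in indisulam libraries. This was a 1.37-fold rise with replicates nearly on top of each other (log2 fold change 0.45, SE 0.0453, edgeR adjusted p = 4.20e-06). SRSF4, one of the longer SR proteins, rose from 59.5 and 58.6 to 80.9 and 76.0 CPM (log2 fold change 0.41, SE 0.0558, edgeR adjusted p = 5.88e-05). SRSF2 rose from 194 and 190.0 to 231 and 241 CPM (log2 fold change 0.30, SE 0.0713, edgeR adjusted p = 0.0042). In every SR gene except SRSF6 both indisulam libraries were above both untreated libraries. The share of all tested genes with groups separated in this way was not counted.

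SRSF6 moved the other way. This SR protein, which like SRSF1, SRSF4, SRSF5 and SRSF9 has a pseudo-RRM beside its RNA recognition motif, had 109 and 108 CPM in untreated and 93.2 and 94.4 in indisulam libraries. Its libraries did not overlap, and its log2 fold change was -0.21 (SE 0.05, edgeR adjusted p = 0.00406). SRSF1, SRSF2, SRSF3, SRSF4 and SRSF6 passed under all 14 alternative analyses, including each library left out in turn.

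The other rises were smaller and rested more on single libraries. SRSF7 went from 134.5 and 140.3 to 161 and 160.1 CPM (log2 fold change 0.23, SE 0.0527, edgeR adjusted p = 0.00353), and without untreated replicate 1 its log2 fold change was 0.20 (adjusted p = 0.0505, between 6.63e-04 and 0.0505 over the alternatives). SRSF10, a splicing repressor when dephosphorylated, went from 118 and 127 to 151 and 142 CPM (log2 fold change 0.26, SE 0.0628, edgeR adjusted p = 0.00494). Without untreated replicate 1 the value for SRSF10 was 0.20 (adjusted p = 0.068, between 1.08e-04 and 0.068 over the alternatives). These genes thus kept their direction in every alternative. SRSF5 had 174.5 and 178 CPM in untreated and 233 and 201 in indisulam libraries (log2 fold change 0.30, SE 0.0871, edgeR adjusted p = 0.0133). Its indisulam libraries were the farthest apart in the family. Without indisulam replicate 1 the log2 fold change of SRSF5 was 0.19 (adjusted p = 0.11), and without untreated replicate 1 it was 0.29 (adjusted p = 0.0665), within a range of 1.43e-06 to 0.11 over the alternatives.

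SRSF9 was the gene nearest to the threshold among those that passed. It had 183 and 176.5 CPM in untreated and 193 and 200.3 in indisulam libraries (log2 fold change 0.13, SE 0.0481, edgeR adjusted p = 0.0447). Its call was lost without any 1 of the 4 libraries compared: the log2 fold change was 0.15 and 0.10 without untreated replicate 1 and 2, and 0.16 and 0.11 without indisulam replicate 1 and 2 (adjusted p = 0.0943, 0.262, 0.0699 and 0.203, between 0.00256 and 0.262 over the alternatives). SRSF9 overlaps GATC on the opposite strand over 42.6% of its canonical transcript, and SRSF2 overlaps MFSD11 on the opposite strand over 30.1%. The libraries were stranded, but the strand setting of the counting is not given in the sources used here. The part of these neighbours in the counts of SRSF9 and SRSF2 was not tested. SRSF1 and SRSF6 overlap genes on their own strand, ENSG00000266086 and ENSG00000288000, over 31.6% and 15.0% of their canonical transcripts. These neighbours had 0 counts in all libraries. Reads recorded as ambiguous are left out of the counts, so a count of 0 does not show that no reads were shared. The part of these overlaps in the counts of SRSF1 and SRSF6 was not tested. SRSF11, an SR protein that binds the U2AF complex, missed the threshold with 108 and 113.5 CPM in untreated and 130.2 and 121 in indisulam libraries (log2 fold change 0.18, SE 0.0694, edgeR adjusted p = 0.0537). It passed without indisulam replicate 2 (log2 fold change 0.24, adjusted p = 0.0247) and, at 0.18 each, without SPHINX31 replicate 1 or 2 (adjusted p = 0.0122 each). SRSF11 also passed with RLE size factors, library totals alone, no filter, the GC correction and DESeq2 (adjusted p = 0.0403, 0.0444, 0.0132, 0.025 and 0.0405), with a range of 0.0122 to 0.26 over the alternatives.

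**Figure D2:**
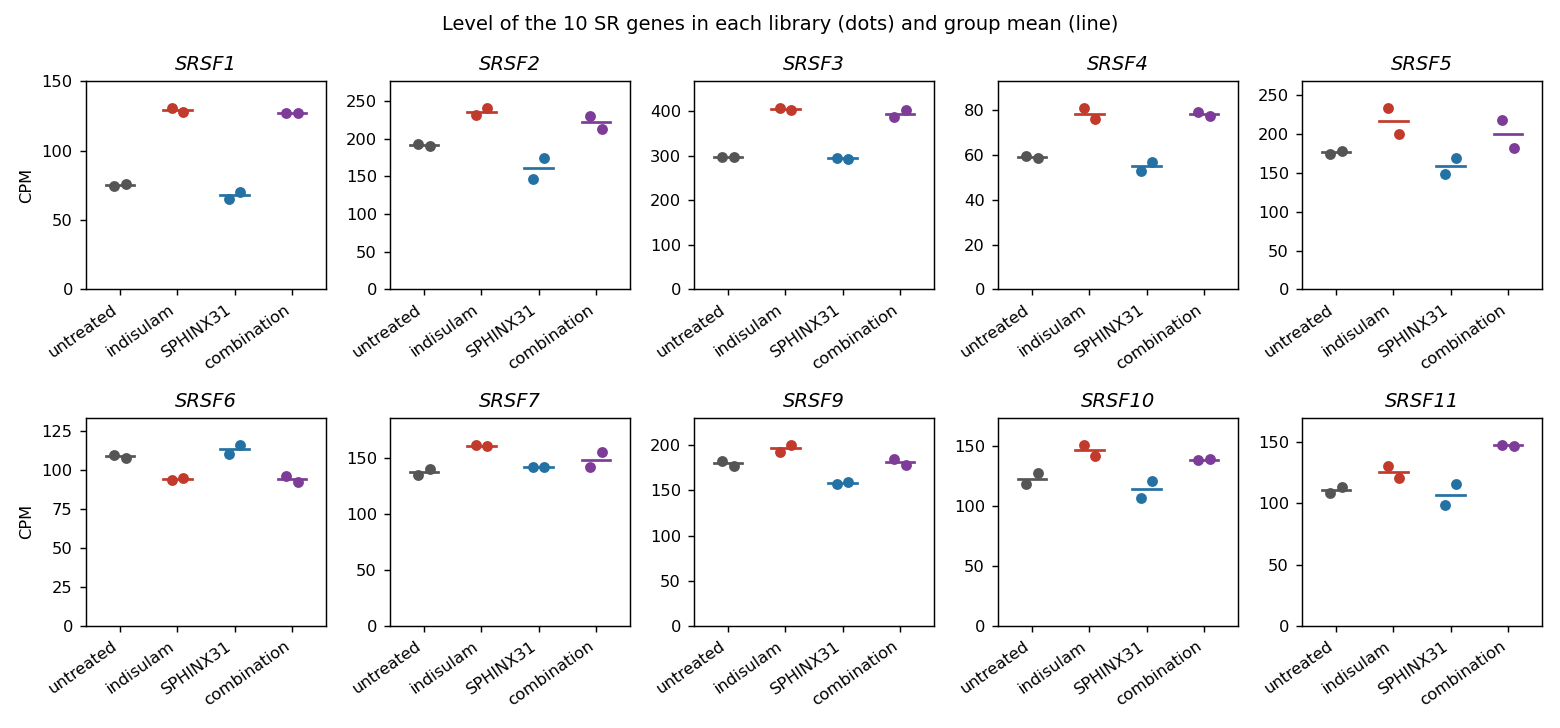
CPM of each SR gene in the 4 groups, with 1 dot per library, a line at the group mean and axes that start at 0. SRSF1 shows the largest fold difference, with 74.8 and 76.0 CPM in untreated against 131 and 128 in indisulam libraries, and SRSF6 is the gene whose indisulam libraries lie below the untreated ones.

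Fewer SR genes passed with SPHINX31 alone than with indisulam alone. Of the 10 genes 2 were lower (SRSF2 and SRSF9) and 0 higher, beside 8.61% of all genes that passed, 4.94% as higher and 3.67% as lower. At an unadjusted edgeR p under 0.05 there were 3 SR genes, beside 24.1% of all genes. The median log2 fold change of the SR genes was -0.11, beside -0.01 over all genes. SRSF2 had 194 and 190.0 CPM in untreated and 146 and 175 in SPHINX31 libraries (log2 fold change -0.26, SE 0.0716, edgeR adjusted p = 0.0419). Both SPHINX31 libraries were below the untreated ones, but they were further apart than in any other SR gene. Without SPHINX31 replicate 1 the log2 fold change of SRSF2 was -0.14 (adjusted p = 0.261) and without SPHINX31 replicate 2 it was -0.39. Its call was also lost without untreated replicate 1 or 2 (log2 fold change -0.24 and -0.27, adjusted p = 0.204 and 0.144) and without combination replicate 1 or 2 (-0.26 each, adjusted p = 0.0543 and 0.0559). The adjusted p of SRSF2 thus ranged from 4.79e-04 to 0.261 over the alternatives.

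SRSF9 had 157 and 159.5 CPM with SPHINX31, below the 183 and 176.5 CPM of untreated cells (log2 fold change -0.18, SE 0.0482, edgeR adjusted p = 0.0324). Without untreated replicate 1 or 2 it was -0.16 and -0.21 (adjusted p = 0.255 and 0.115), and without SPHINX31 replicate 1 or 2 it was -0.18 and -0.20 (adjusted p = 0.116 and 0.0549, between 0.0142 and 0.255 over the alternatives). Neither SRSF2 nor SRSF9 passed when library totals alone were used for scaling, with log2 fold changes of -0.22 and -0.15 (adjusted p = 0.0638 and 0.0613). SRSF1 had 65.4 and 70.2 CPM with SPHINX31, both below the 74.8 and 76.0 CPM of untreated cells, but did not pass (log2 fold change -0.15, SE 0.0519, edgeR adjusted p = 0.0857). It passed without SPHINX31 replicate 2 (log2 fold change -0.21, adjusted p = 0.0396), with a range of 0.0078 to 0.339 over the alternatives. SRSF3 was nearly equal in both groups, with 295 and 293 CPM against 297 and 296 in untreated cells (log2 fold change -0.01, SE 0.0453). SRSF6 and SRSF7 had positive values that did not pass, 0.06 (SE 0.0498) and 0.04 (SE 0.0527). SRSF4, SRSF5, SRSF10 and SRSF11 had values between -0.15 and -0.05 that did not pass either.

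In cells treated with the combination, SRSF1 again had the highest rise and SRSF6 again fell. Relative to untreated cells, 6 SR genes were higher (SRSF1, SRSF2, SRSF3, SRSF4, SRSF10 and SRSF11), 1 was lower (SRSF6) and 3 did not pass (SRSF5, SRSF7 and SRSF9). Over all genes 50.0% passed, 23.8% as higher and 26.3% as lower. The median log2 fold change was 0.20 for the SR genes and 0.00 for all genes. This comparison and those of the single compounds share the untreated libraries, so that their values are given side by side and not as independent results. SRSF1 had 128 CPM in both combination libraries (log2 fold change 0.76, SE 0.0514, edgeR adjusted p = 7.18e-08), as against 0.78 with indisulam and -0.15 with SPHINX31. SRSF3 had 385.5 and 403 CPM (log2 fold change 0.41, SE 0.0453, edgeR adjusted p = 6.39e-06). SRSF4 had 79.0 and 77.3 CPM, above the 59.5 and 58.6 CPM of untreated cells (log2 fold change 0.41, SE 0.0558, edgeR adjusted p = 4.77e-05). All 3 were close to their values with indisulam alone. SRSF6 had 95.9 and 92.1 CPM, below both untreated libraries (log2 fold change -0.21, SE 0.05, edgeR adjusted p = 0.00361).

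SRSF11 was highest in the combination, although its difference from indisulam alone did not pass (edgeR adjusted p = 0.0594). Its combination libraries had 148 and 147 CPM, above the 130.2 and 121 CPM of the indisulam, the 98.4 and 116 CPM of the SPHINX31 and the 108 and 113.5 CPM of the untreated libraries. Against untreated cells its log2 fold change was 0.41 (SE 0.0692, edgeR adjusted p = 2.65e-04), and SRSF1, SRSF3, SRSF4, SRSF6 and SRSF11 passed under all 14 alternatives. SRSF2 had 231 and 213 CPM with the combination (log2 fold change 0.21, SE 0.0713, edgeR adjusted p = 0.0257). The call of SRSF2 was lost without untreated replicate 1 or 2 (log2 fold change 0.22 and 0.20, adjusted p = 0.0739 and 0.113) and without combination replicate 1 (0.16, adjusted p = 0.177, the highest of a range that began at 0.00114). SRSF10 had 138 and 138.5 CPM (log2 fold change 0.18, SE 0.0628, edgeR adjusted p = 0.0313). Without untreated replicate 1 and without combination replicate 1 or 2 the value of SRSF10 was 0.12, 0.19 and 0.17, and it no longer passed (adjusted p = 0.238, 0.085 and 0.108, in a range of 0.00117 to 0.238).

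The 3 genes that did not pass had risen with indisulam alone. SRSF5 had 218 and 182 CPM with the combination (log2 fold change 0.18, SE 0.0871, edgeR adjusted p = 0.0968), both above the untreated libraries. It passed without indisulam replicate 1 or 2 (log2 fold change 0.19 each, adjusted p = 0.0389 and 0.039) and without combination replicate 2 (0.31, adjusted p = 0.0233), with a range of 0.00597 to 0.65 over the alternatives. SRSF7 had 142 and 155 CPM (log2 fold change 0.11, SE 0.0527, edgeR adjusted p = 0.0972), and passed without combination replicate 1 (0.18, adjusted p = 0.0254, in a range of 0.018 to 0.546). SRSF9 had 184 and 178 CPM, which overlapped the 183 and 176.5 CPM of untreated cells (log2 fold change 0.01, SE 0.0481, edgeR adjusted p = 0.86).

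**Figure D3:**
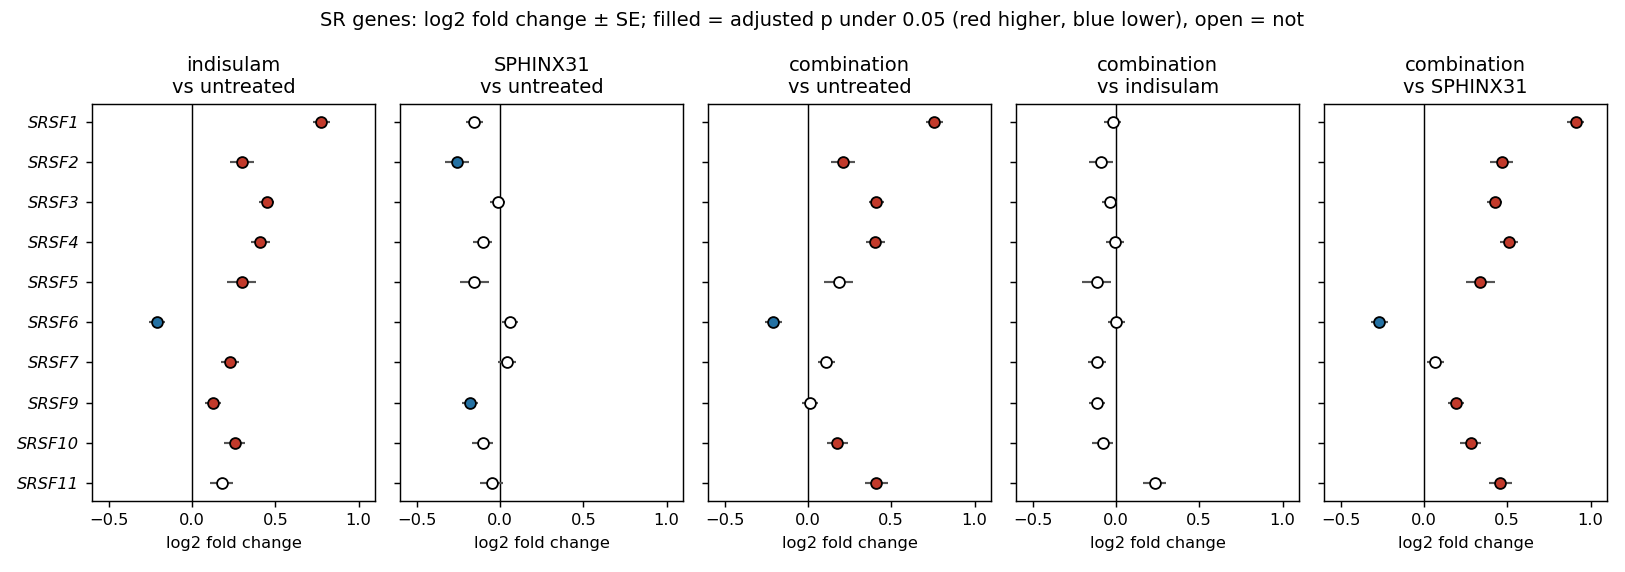
Log2 fold change of each SR gene in the 5 comparisons between groups, with bars for the standard error, filled symbols for an adjusted p under 0.05 (red higher, blue lower) and open symbols otherwise. With indisulam 9 genes are filled, with SPHINX31 2 and with the combination 7, and in the combination against indisulam all symbols are open.

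No SR gene passed when SPHINX31 was added to indisulam. In the combination against indisulam 0 of 10 SR genes passed, beside 7.50% of all genes (3.17% as higher and 4.32% as lower), with edgeR's quasi-likelihood test. At an unadjusted p under 0.05 there were 3 SR genes, beside 22.2% of all genes, and DESeq2 called 1, SRSF11. SRSF11 was higher in both combination libraries than in both indisulam libraries (log2 fold change 0.23, SE 0.0692, edgeR adjusted p = 0.0594). It passed without SPHINX31 replicate 1 or 2 (0.24 each, edgeR adjusted p = 0.0132 and 0.0133) and with DESeq2 (0.22, adjusted p = 0.038), in a range of 0.00386 to 0.241 over the alternatives. The other values lay between -0.12 and 0.00, and their median with SRSF11 was -0.06, beside 0.00 for all genes. SRSF9 (-0.12, SE 0.0481) and SRSF7 (-0.12, SE 0.0526) did not pass, with edgeR adjusted p of 0.17 and 0.214. SRSF1 had 131 and 128 CPM with indisulam and 128 in both combination libraries (log2 fold change -0.02, SE 0.0507).

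Adding indisulam to SPHINX31 raised most SR genes and lowered SRSF6. In the combination against SPHINX31, 8 SR genes were higher, SRSF6 was lower and SRSF7 did not pass (log2 fold change 0.07, SE 0.0527, edgeR adjusted p = 0.303). Over all genes 49.9% passed, 23.4% as higher and 26.5% as lower, and the median log2 fold change was 0.38 for the SR genes and 0.00 for all genes. SRSF1 differed most, with 65.4 and 70.2 CPM with SPHINX31 and 128 in both combination libraries (log2 fold change 0.91, SE 0.0517, edgeR adjusted p = 1.73e-08). SRSF4 (0.51), SRSF2 (0.47), SRSF11 (0.46) and SRSF3 (0.42) followed. SRSF6 had a value of -0.27 (SE 0.05, edgeR adjusted p = 6.12e-04). SRSF10, SRSF9 and SRSF5 were higher by 0.28, 0.19 and 0.34. The call of SRSF5 was lost without SPHINX31 replicate 1 (0.26, adjusted p = 0.0599) and without combination replicate 1 (0.21, adjusted p = 0.093, the highest in a range from 7.72e-08).

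The effect of the combination was not detectably different from the sum of the single effects on the log2 scale. In the test of this departure 0 of 10 SR genes passed, as did 0.00% of all genes. At an unadjusted p under 0.05 there was 1 SR gene, SRSF11, beside 8.49% of all genes, and DESeq2 called 0 SR genes. SRSF11 had the largest departure (log2 value 0.28, SE 0.0981, edgeR adjusted p = 0.483), followed by SRSF2 (0.17, SE 0.101), SRSF7 (-0.16, SE 0.0745) and SRSF1 (0.13, SE 0.0725). The standard errors of the 10 departures were 0.0639 to 0.123.

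**Figure D4:**
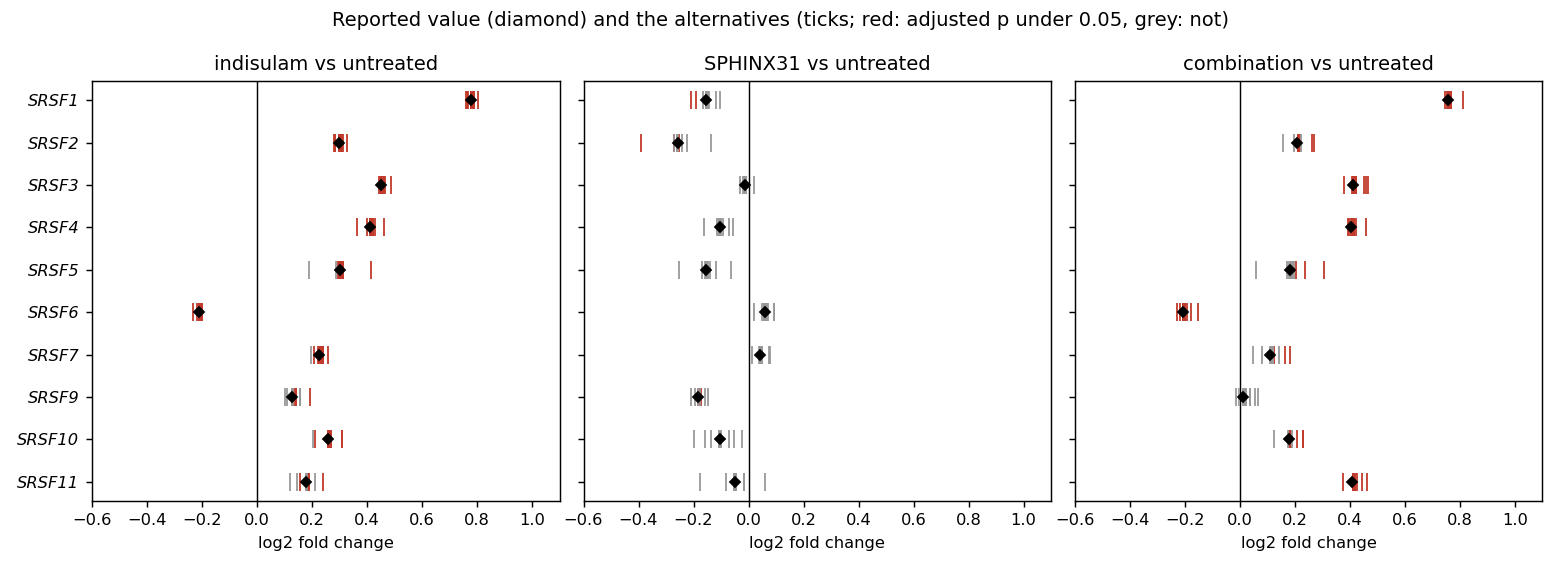
Log2 fold change of each SR gene as reported (diamond) and under 14 alternative analyses (ticks, red for an adjusted p under 0.05 and grey otherwise), for each treatment against untreated cells. SRSF1 stays between 0.76 and 0.80 with indisulam, whereas SRSF2 with SPHINX31 spreads from -0.39 to -0.14.

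The family members outside the list were SRSF8 and SRSF12. SRSF8, an intronless relative of SRSF2, had 33.3 and 34.9 CPM in untreated, 43.6 and 45.4 in indisulam, 34.3 and 35.6 in SPHINX31 and 52.2 and 52.0 in combination libraries. It rose with indisulam (log2 fold change 0.38, SE 0.0567, edgeR adjusted p = 1.20e-04) and was higher again in the combination than with indisulam alone (0.23, SE 0.0558, edgeR adjusted p = 0.0245). SRSF12 was barely expressed, with 1.19 to 2.40 CPM in all libraries, and did not pass with any treatment against untreated cells. It was lower in the combination than with SPHINX31 alone (log2 fold change -0.75, SE 0.186, edgeR adjusted p = 0.00436). Annotated pseudogenes of the family held between 0 and 12 counts per library each. Reads without a unique alignment are left out of these counts, so low values do not show that no reads were shared.

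Genes for proteins related to the SR family rose with indisulam more often than they fell. Of 33 listed genes, all tested, 20 were higher and 1 was lower with indisulam, beside 20.1% and 23.5% of all genes, with a median log2 fold change of 0.34 beside -0.0041 for all genes. The largest rises were those of RBM39 (1.22), of LUC7L, a U1 snRNP partner (1.09, from 29.1 ± 1.87 to 61.8 ± 0.623 CPM, SD, n = 2 each), and of RBM25, a regulator of BCL2L1 splicing (0.77). RSRC2 was the gene that fell (-0.26, edgeR adjusted p = 0.00885). With SPHINX31 0 of 33 passed with edgeR, beside 8.61% of all genes, with 14 at an unadjusted p under 0.05 (24.1% of all genes) and 2 by DESeq2, and the median was -0.07. With the combination 22 were higher and 3 lower, beside 23.8% and 26.3% of all genes, with a median of 0.32. In the combination against indisulam 4 of 33 passed, 3 as higher and 1 as lower, beside 3.17% and 4.32% of all genes. SRRM2, SRSF8 and U2AF2 were higher (0.39, 0.23 and 0.18) and TRA2A was lower (-0.24). These genes, SRSF8 apart, were named after their values were seen.

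Genes for the phosphorylation and import of SR proteins moved in both directions. With indisulam 8 of 15 tested genes were higher and 4 lower (SRPK3, the 16th of the list, had too few counts), beside 20.1% and 23.5% of all genes, and the median was 0.14 beside -0.0041 for all genes. The nuclear SR kinases CLK4 and CLK1 rose by log2 fold changes of 0.99 and 0.68 and the phosphatase subunit PPP1CC by 0.36, while CLK2 (-0.37), SRPK1 (-0.33) and TOP1, a topoisomerase that also phosphorylates SR proteins (-0.24), fell. With SPHINX31 2 of 15 passed, 1 as higher and 1 as lower, beside 4.94% and 3.67% of all genes, with a median of 0.06. CLK3, named after its values were seen, was higher (0.36, edgeR adjusted p = 0.00168) and CLK2 lower (-0.28, edgeR adjusted p = 0.0452). With the combination 7 were higher and 5 lower, beside 23.8% and 26.3% of all genes, with a median of 0.14 beside 0.001 for all genes.

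Factors of nonsense-mediated decay, which removes poison exon transcripts, showed no common direction. With indisulam 2 of 10 were higher, the exon junction partner UPF3B (0.26) and SMG8 (0.15), and 3 were lower, among them the kinase SMG1 (-0.31) and SMG9 (-0.21). The 5 genes that passed stand beside 43.7% of all genes, and the median of the list was -0.04. With SPHINX31 0 of 10 passed with edgeR, with 4 at an unadjusted p under 0.05 (24.1% of all genes) and 1 by DESeq2. With the combination 2 were higher and 3 lower, beside 23.8% and 26.3% of all genes.

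**Figure D5:**
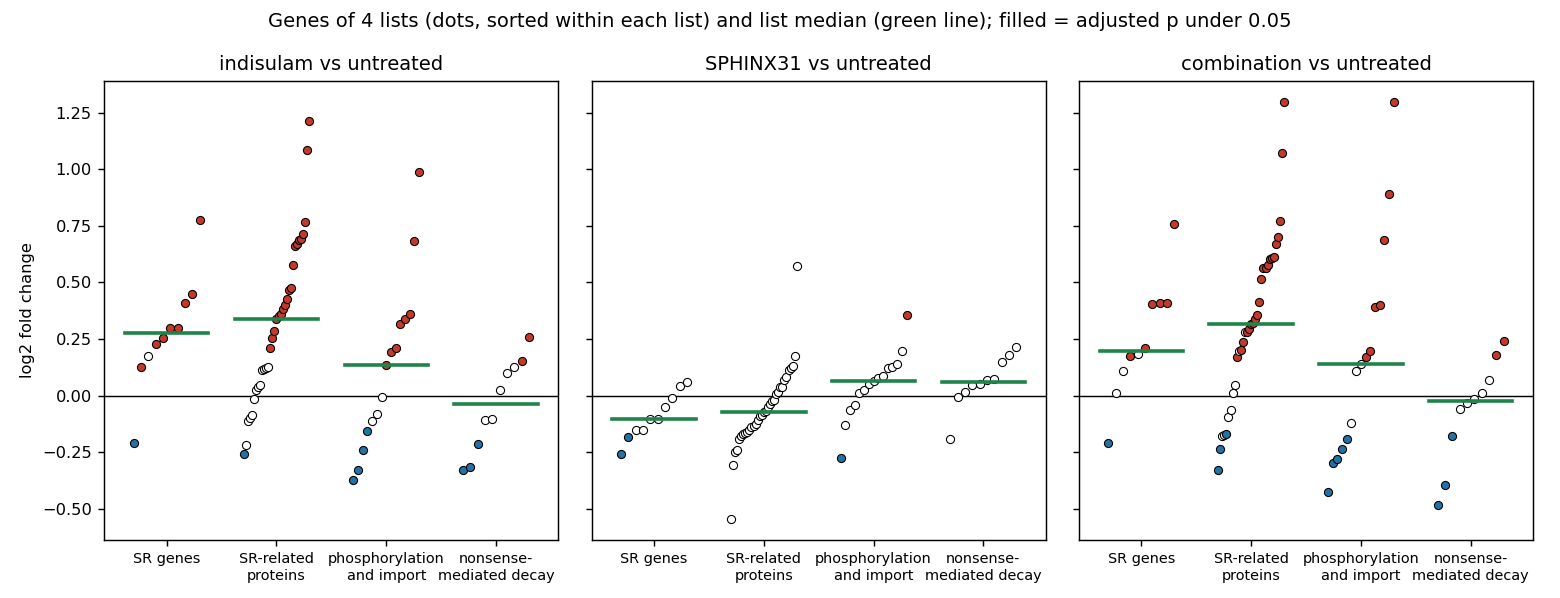
Log2 fold changes of the SR genes and of 3 further gene lists in each treatment against untreated cells, with 1 dot per gene sorted within its list, a green line at the list's median, and filled dots for an adjusted p under 0.05. With indisulam the medians are 0.28 for the SR genes, 0.34 for SR-related proteins, 0.14 for phosphorylation and import and -0.04 for nonsense-mediated decay.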

How the data were processed

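Polyadenylated RNA from 8 libraries of A549 cells (4 groups of 2 technical replicates) was sequenced from both ends, with stranded libraries and reads of 150 bp. The authors deposited raw gene counts, whole numbers without normalization, per Ensembl gene. The submitters' processing notes name HISAT2 2.2.1, HTSeq and GRCh38, and the study's methods name SeqPurge for trimming. The annotation release and strand setting of the counting are not given in the sources used here. Rows for unassigned reads (14.0% to 17.0% of reads per library) were left out. No column was left unused.

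Libraries were grouped by their treatment labels. Genes were filtered with filterByExpr in edgeR 4.0.16 (R 4.3.3), which kept 18661 of 60624, library sizes were adjusted by TMM (factors 0.978 to 1.02), and all 8 libraries were fitted together with 4 residual degrees of freedom (coefficient of variation between replicates 0.0491). Replicates of a group differed by more than counting noise. P-values were adjusted over all tested genes with a threshold of 0.05. Counting error is included in the standard errors of the log2 fold changes, 0.0451 to 0.0874 for the SR genes between groups. CPM are counts per 1000000 of TMM-adjusted library size. Gene names and lengths were from GENCODE release 44. The fit was tested on simulated data. Python 3.11.15, numpy 2.4.6, pandas 2.3.3 and matplotlib 3.10.9 were used for the remaining steps.

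The SR genes and the gene lists were chosen with earlier results of these data known. Named are all 10 SR genes, RBM39, SRPK1, SRSF8, SRSF12, up to 3 genes up and 3 down per list with the largest change among those that passed with indisulam, and, for SRSF1, the 3 genes with the most similar profile. The values of 1 gene that met this rule are not reported here. The alternatives were RLE size factors, library totals alone, no filter on low counts (34831 genes), DESeq2 1.42.0, the replicate number as a block, each library left out, and a correction for GC content in 50 bins of genes, which was added after the data were seen. The lone library of a group was then assumed to vary like the other groups.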

Additional observations from a re-analysis of the deposited data

Results flagged for a closer look

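In SRSF7 the libraries with SPHINX31 lay on opposite sides of their controls without and with indisulam, although neither difference passed (log2 fold change 0.04 and -0.12, edgeR adjusted p = 0.671 and 0.214). SRSF7 was picked for this pattern from all SR genes, and the share of all tested genes with it was not counted. Without indisulam both SPHINX31 libraries (141.4 and 141.7 CPM) were above both untreated libraries (134.5 and 140.3 CPM). With indisulam both combination libraries (142 and 155 CPM) were below both indisulam libraries (161 and 160.1 CPM). The difference between these effects was -0.16 on the log2 scale (SE 0.0745) and did not pass the test (edgeR adjusted p = 0.595, between 0.352 and 0.947 over the alternatives).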

How the results depend on the processing

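Of 840 log2 fold changes recomputed for the SR genes over 6 comparisons and 14 alternatives, 759 kept their direction and their side of the threshold, 31 lost it, 25 gained it and 25 changed sign. With 2 technical replicates per group, calls near the threshold turned on single libraries. The number of SR genes that passed was 9 with indisulam (5 to 10 with a library left out, 5 without untreated replicate 1), 2 with SPHINX31 (0 to 2), 7 with the combination (5 to 8), 0 in the combination against indisulam (0 to 1) and 9 against SPHINX31 (8 to 9). With SPHINX31 0 SR genes passed with library totals alone, without SPHINX31 replicate 1 and without either untreated library, and 1 without either combination library. In the combination against indisulam 1 SR gene passed with library totals alone, no filter, the GC correction, DESeq2 or either SPHINX31 library left out. Over all genes, the GC correction, chosen after the data were seen, gave 2688 calls with SPHINX31, 2353 in the combination against indisulam and 15 for the departure from the sum, in place of 1606, 1399 and 0. Left-out libraries gave 482 to 1810, 440 to 1612 and 0 to 1 calls. For the departure, DESeq2 gave 30 calls and no filter 94, of which 0 were SR genes. Equal replicate numbers were not taken as pairs, since nothing says that they mark libraries made together and replicate 1 did not deviate alike in all groups. It deviated in opposite directions in the untreated and indisulam (correlation -0.61 across 8228 genes) and the indisulam and SPHINX31 groups (-0.53). The direction was the same in the untreated and SPHINX31 (0.48) and the untreated and combination groups (0.20). Correlations were near 0.06 for indisulam and combination and 0.03 for SPHINX31 and combination. With the replicate number as a block, 8 SR genes passed with indisulam (SRSF9 did not, adjusted p = 0.0584), 0 with SPHINX31 and 7 with the combination. All values that changed sign were small, and none passed. Library totals alone gave 0.0215 for SRSF3 with SPHINX31 and, in the combination against indisulam, 0.0262 for SRSF1, 0.0067 for SRSF3 and 0.0399 for SRSF4. For SRSF6 in that comparison RLE factors gave -0.0032 and DESeq2 -0.0067. For SRSF3 the GC correction gave a departure of 0.0030. With each library left out, the genes whose values changed sign ranged from -0.1753 to 0.0611 for SRSF11 with SPHINX31, from -0.0138 to 0.0384 for SRSF9 with the combination, and, in the combination against indisulam, from -0.0394 to 0.0007 for SRSF1, from -0.0539 to 0.0443 for SRSF4, from -0.2442 to 0.0058 for SRSF5 and from -0.0201 to 0.0315 for SRSF6. Departures ranged from -0.0576 to 0.0141 for SRSF3, from -0.0882 to 0.1596 for SRSF5 and from -0.0507 to 0.1252 for SRSF10. Apart from the effect of leaving out samples or of testing other genes, the cause of these changes was not tested.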

Other observations

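The genes whose profile over the 8 libraries was most like that of SRSF1 were NDUFAF1, an assembly factor of mitochondrial complex I, JMJD6, a hydroxylase of splicing factors, and N6AMT1, a methyltransferase. The measure of likeness was the root mean square difference of centred log2 CPM, which was 0.0266, 0.0396 and 0.0425. Their log2 fold changes with indisulam were 0.80, 0.74 and 0.74, beside 0.78 for SRSF1. They were picked for this likeness from all tested genes, and all values share the same libraries.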
